A study of Xenopus laevis with 22 samples.

Results

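In Xenopus laevis animal caps, 40 of the 10879 gene symbols tested (0.368%) differed between 3 and 9 h in how strongly dominant-negative E2f4 (dnE2f4) altered their RNA level. They were chosen by a contrast of contrasts, the dnE2f4 effect at 9 h minus the dnE2f4 effect at 3 h, at a Benjamini-Hochberg adjusted p under 0.05 in edgeR's quasi-likelihood F test. The dnE2f4 effect is the log2 ratio of caps with dnE2f4 and Multicilin over caps with Multicilin alone. It moved down in 24 symbols (0.221% of those tested) and up in 16 (0.147%). Because the 3 h and 9 h values chose these symbols, those values are given as a description. The 6 h libraries and the E2f4 binding sites had no part in the choice.

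Multicilin, encoded by mcidas, is a nuclear coiled-coil protein that has no DNA-binding domain of its own. It starts multiciliated-cell differentiation by forming a complex with E2f4 or E2f5 and Dp1 at target promoters, where the E2f protein makes the contact with DNA. In the frog epidermis these cells make many centrioles, dock them at the surface and grow a motile cilium from each, alongside ionocytes and secretory cells.

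Animal caps, pieces of embryonic ectoderm, came from embryos injected with RNA for a hormone-inducible Multicilin (multicilin-HGR), with or without RNA for dominant-negative E2f4. All groups measured for RNA therefore carried multicilin-HGR and were treated with 20 µM dexamethasone at 22 °C starting at mid-stage 11. Caps were harvested 3, 6 and 9 h later, roughly at stages 13, 16 and 18, with 20 caps for each RNA condition. Each combination of RNA and time had 3 libraries, giving 3 libraries of dnE2f4 with Multicilin and 3 of Multicilin alone at each time. No caps without Multicilin entered these comparisons, so an effect is always on top of induced Multicilin. A separate ChIP-seq experiment at 6 h located E2f4-GFP with Multicilin and without it, from about 300 caps per condition. The sample records give 20 µM dexamethasone for the ChIP caps with Multicilin and state none for those without. Hormone treatment may therefore differ between the peak sets as well. Nothing in the labels says that the biological replicates came from separate animals or clutches, so p-values measure the spread between these samples.

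The 18 RNA libraries held 9159519 to 38099850 estimated fragments. The e2f4 transcript, raised by the injected RNA, went against the labels of 2 libraries. At 9 h the library labelled dnE2f4 replicate 2 held an e2f4 level of 14.2 CPM (fragments scaled to a common library total) and the library labelled Multicilin replicate 2 held 1427. The other 9 h libraries labelled dnE2f4 held 1471 and 1235 CPM, and the others labelled Multicilin held 14.1 and 14.4. For the choice of the 40 symbols the 9 h libraries were grouped by e2f4, with over 500 CPM taken as dnE2f4 and under 100 as Multicilin, which exchanges those 2. In lists of 9 h values below, the library labelled Multicilin replicate 2 stands first among the dnE2f4 values and the library labelled dnE2f4 replicate 2 last among the Multicilin values. Without this pair all 40 changes kept their direction and had an unadjusted p under 0.05, and 2 of them, rttn and mylk, had an adjusted p under 0.05. That fit reuses libraries that chose the 40, so it is not an independent check. With the labels as deposited 37 kept their direction and edgeR called 0 symbols, with 82 at an unadjusted p under 0.05. Another 2 libraries, dnE2f4 replicate 1 at 3 h and replicate 3 at 9 h, list 35532 targets where the other 16 list 24383. Fragments were therefore summed by symbol over the 12434 symbols found in both sets, and 15 of the 40 symbols have the same number of targets in each. Leaving those 2 libraries out called 15 symbols, 14 of them among the 40. Xenopus laevis carries near-identical gene copies and the library kit keeps no strand, so the level of any single copy, and of genes that overlap, is uncertain.

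Levels of e2f4 and mcidas, the genes whose RNAs were injected, differed between the times. Counts by symbol do not separate injected from endogenous RNA. Levels from here on are CPM after TMM scaling, a correction for library composition. The e2f4 level was 7897 ± 2463 CPM in dnE2f4 caps and 32.4 ± 3.79 in Multicilin caps at 3 h (SD, n = 3 each). It was 5451 ± 1702 CPM in dnE2f4 caps and 34.1 ± 9.38 in Multicilin caps at 6 h, and 1709 ± 81.0 in dnE2f4 caps and 18.6 ± 0.740 in Multicilin caps at 9 h. Mcidas was read from targets joined by position, which may miss fragments given to extra targets in the 2 libraries of the other set. It stood at 902 ± 309 CPM in dnE2f4 caps and 1537 ± 168 in Multicilin caps at 3 h, 1168 ± 190 in dnE2f4 caps and 1899 ± 338 in Multicilin caps at 6 h, and 431 ± 120 in dnE2f4 caps and 954 ± 233 in Multicilin caps at 9 h. The mean of mcidas RNA was thus lower in dnE2f4 caps at each time. Its dnE2f4 effect was -0.77 at 3 h (edgeR adjusted p = 0.733) and -1.20 at 9 h (0.0228, a call). The change of -0.44 ± 0.38 (SE) between them did not pass (edgeR adjusted p = 0.842). The e2f4 level in dnE2f4 caps was lowest at 9 h, the time at which most of the 40 effects were largest. The part of either RNA in the changes below was not tested.

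The 40 symbols fall into 3 kinds. An effect was said to reverse when it was at least 0.5 in size (log2) at both times with opposite signs. Otherwise it deepened if it was larger in size at 9 h, and faded if it was larger at 3 h. By this rule 35 deepened, 22 of them downward and 13 upward, 4 reversed and 1 faded. Most of the deepened effects, in both directions, had the opposite sign at 3 h, where they were under 0.5 in size. The median 3 h effect was 0.04 in the 22 and -0.23 in the 13, and the 9 h medians were -1.68 and 1.17. To deepen thus means here a larger size at 9 h and need not mean growth of an effect present at 3 h. At 3 h most lay near 0: the median effect was 0.05 in the 24 that moved down and -0.28 in the 16 that moved up, and 2 of the 40 were called, where 0.184% of all symbols were. At 9 h the medians were -1.68 and 1.06, and 38 of the 40 were called, where 11.7% of all symbols were. The median over all symbols tested was 0.00 at 3 h and 0.06 at 9 h. Both times entered the choice of the 40, so these counts describe the members and are not support. Among these members, deepening was mostly the appearance of a difference that was small at 3 h.

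**Figure D1:**
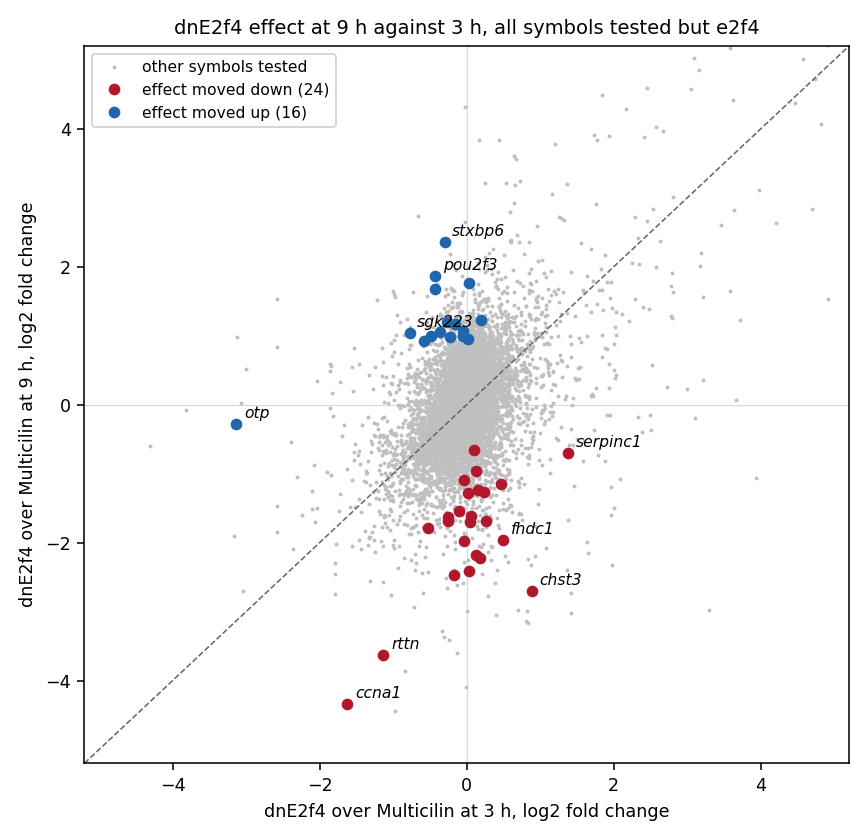
dnE2f4 effect at 9 h (vertical axis) against the effect at 3 h (horizontal axis), both as log2 fold change of dnE2f4 over Multicilin, for the symbols tested other than e2f4. Grey points are other symbols, of which 31 lie outside the plotted range; red points are the 24 symbols whose effect moved down and blue points the 16 whose effect moved up. The dashed line marks equal effects, and most coloured points stand near 0 on the horizontal axis and away from 0 on the vertical one.

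Of the 24 downward changes, the one with the lowest adjusted p was that of rttn (rotatin), a centriole protein needed for centriole elongation. Its level was 8.23, 7.69 and 6.09 CPM in dnE2f4 caps and 17.8, 16.6 and 14.5 in Multicilin caps at 3 h. At 6 h it was 13.6, 12.5 and 13.6 CPM in dnE2f4 caps and 98.6, 114 and 118 in Multicilin caps. The 9 h values were 13.3, 17.4 and 14.8 CPM in dnE2f4 caps and 200, 194 and 164 in Multicilin caps. The groups did not overlap at any time, and the dnE2f4 level stayed under 18 CPM at all times while the Multicilin level climbed. These are bulk samples, in which fewer cells of a type and less RNA per cell cannot be told apart. The effect was -1.13 ± 0.17 (log2, SE) at 3 h and -3.63 ± 0.18 at 9 h, a change of -2.50 ± 0.23. In the 6 h libraries rttn fell by 3.05 ± 0.13 (log2, edgeR adjusted p = 0.000133). It is a single target on JGIv7b scaffold 23301, positions 2048937 to 2135881 on the minus strand. An E2f4-GFP peak lay 148 bases from its start with Multicilin and 120 bases without.

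Cntln encodes centlein, a centrosomal protein that links centrioles. Its level was 3.13, 3.64 and 3.93 CPM in dnE2f4 caps and 4.94, 6.27 and 4.17 in Multicilin caps at 3 h. By 9 h it was 101, 92.7 and 98.7 CPM in dnE2f4 caps and 308, 337 and 349 in Multicilin caps. The groups did not overlap at either time. Both were thus far higher at 9 h, and the dnE2f4 libraries reached about the level that the Multicilin libraries had at 6 h, 90.0, 99.3 and 103 CPM. At 6 h the dnE2f4 libraries held 31.6, 33.4 and 24.8 CPM and cntln fell by 1.69 ± 0.15 (log2, edgeR adjusted p = 0.00467). Its effect was -0.52 ± 0.15 at 3 h and -1.79 ± 0.15 at 9 h. Peaks lay 30 bases from its start with Multicilin and 23 without.

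Ccna1, cyclin A1, is the cyclin A of the early frog embryo and the germ line. It was 8.56, 4.15 and 5.78 CPM in dnE2f4 caps and 16.7, 20.8 and 20.1 in Multicilin caps at 3 h. At 6 h it was 5.81, 1.81 and 3.1 CPM in dnE2f4 caps and 19.4, 43.2 and 35.2 in Multicilin caps. At 9 h it was 26.5, 37.5 and 14.5 CPM in dnE2f4 caps and 493, 572 and 503 in Multicilin caps. The groups did not overlap at any time, and the step between 6 and 9 h in Multicilin caps was the steepest part of the course. The effect was -1.62 ± 0.34 at 3 h and -4.34 ± 0.37 at 9 h. Of the 40 changes, that of ccna1 alone did not pass with a block for replicate number within each time (edgeR adjusted p = 0.0574). At 6 h ccna1 fell by 3.16 ± 0.46 (log2, edgeR adjusted p = 0.0143, and 0.0937 with replicate number as a block). Of its 2 targets, the one on scaffold 91366, positions 786361 to 795530 on the plus strand, had peaks at 471 bases with Multicilin and 372 without.

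Plk1, the kinase that drives entry into and passage through mitosis, followed another course. Its level at 3 h was 346, 384 and 440 CPM in dnE2f4 caps and 387, 347 and 405 in Multicilin caps. By 9 h it stood at 154, 165 and 215 CPM in dnE2f4 caps and 435, 723 and 554 in Multicilin caps. The groups overlapped at 3 h and were apart at 9 h, where the dnE2f4 libraries stood below every 3 h library. At 6 h they were 238, 184 and 262 CPM in dnE2f4 caps and 295, 409 and 463 in Multicilin caps, an effect of -0.77 ± 0.20 that did not pass (edgeR adjusted p = 0.0888, and 0.0137 with replicate number as a block). Cdk9, the kinase that releases paused RNA polymerase, had the smallest change of the 40 at -0.76 ± 0.14. Its 6 h effect of -0.20 ± 0.11 did not pass (edgeR adjusted p = 0.394, and 0.0558 with the block).

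Mylk, myosin light chain kinase, was 23.9, 21.1 and 23.8 CPM in dnE2f4 caps and 19.8, 20.1 and 17.7 in Multicilin caps at 3 h. At 9 h it was 86.1, 64.8 and 66.9 CPM in dnE2f4 caps and 207, 195 and 290 in Multicilin caps. The dnE2f4 libraries were thus slightly the higher at 3 h and lower by more than 2-fold at 9 h, without overlap at either time. The 6 h libraries held 50.5, 51.0 and 42.1 CPM with dnE2f4 and 68.0, 110 and 80.7 with Multicilin alone, also apart, with an effect of -0.84 ± 0.19 (edgeR adjusted p = 0.0611, and 0.000444 with the block).

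Fhdc1, a formin that binds microtubules as well as actin, was 5.21, 5.79 and 5.83 CPM in dnE2f4 caps and 2.56, 5.1 and 4.39 in Multicilin caps at 3 h. Its 9 h level was 57.3, 56.6 and 61.5 CPM in dnE2f4 caps and 221, 209 and 243 in Multicilin caps. Both groups were higher at the later time, by 3.39 (log2) with dnE2f4 and 5.85 with Multicilin alone. In the 6 h libraries it fell by 1.21 ± 0.20 (log2, edgeR adjusted p = 0.0246). Eps8, a regulator of actin filament ends, differed between 3 and 9 h by -1.55 (log2) in dnE2f4 caps and by 0.12 in Multicilin caps. Its 6 h effect of -0.51 ± 0.21 did not pass (edgeR adjusted p = 0.267, and 0.0511 with the block).

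Rbm20, a splicing regulator known from heart muscle, changed by -2.40 ± 0.29 and gpc1, a cell-surface glypican, by -2.44 ± 0.39. The protein kinase A subunit gene prkar2b changed by -2.30 ± 0.36 and the protein phosphatase 2A subunit gene ppp2r2b by -2.31 ± 0.38. In the 6 h libraries rbm20 fell by 1.50 ± 0.21 (edgeR adjusted p = 0.0136), prkar2b by 1.52 ± 0.18 (0.0088) and ppp2r2b by 1.33 ± 0.24 (0.0314). Gpc1 did not pass at 6 h, with an effect of -1.29 ± 0.45 (edgeR adjusted p = 0.194, and 0.000439 with the block). The brain creatine kinase gene ckb, with a change of -1.93 ± 0.29, and the Polycomb accessory gene yaf2, with -1.37 ± 0.20, fell at 6 h by 1.21 ± 0.18 (edgeR adjusted p = 0.0147) and 1.27 ± 0.14 (0.00724). Dip2a, with a change of -1.05 ± 0.17, fell by 0.67 ± 0.11 there (0.0241).

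The remaining downward members were aass, a lysine-degrading enzyme, ahsa1, an Hsp90 co-chaperone, hace1, a ubiquitin ligase, elavl3, a neuronal RNA-binding protein, dab2ip, a Ras GTPase-activating protein, commd4 and lzts2. Their changes ran from -1.62 in elavl3 to -1.09 in dab2ip. None of these 7 passed at 6 h, where their effects ran from -0.94 in ahsa1 to -0.20 in lzts2. With replicate number as a block 5 passed there, all but elavl3 (edgeR adjusted p = 0.178) and lzts2 (0.147). With this block 15.1% of all symbols were called lower at 6 h. Aass had peaks 48 bases from its start with Multicilin and 40 without, and its change passed in every fit that left out 1 of the 12 libraries.

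**Figure D2:**
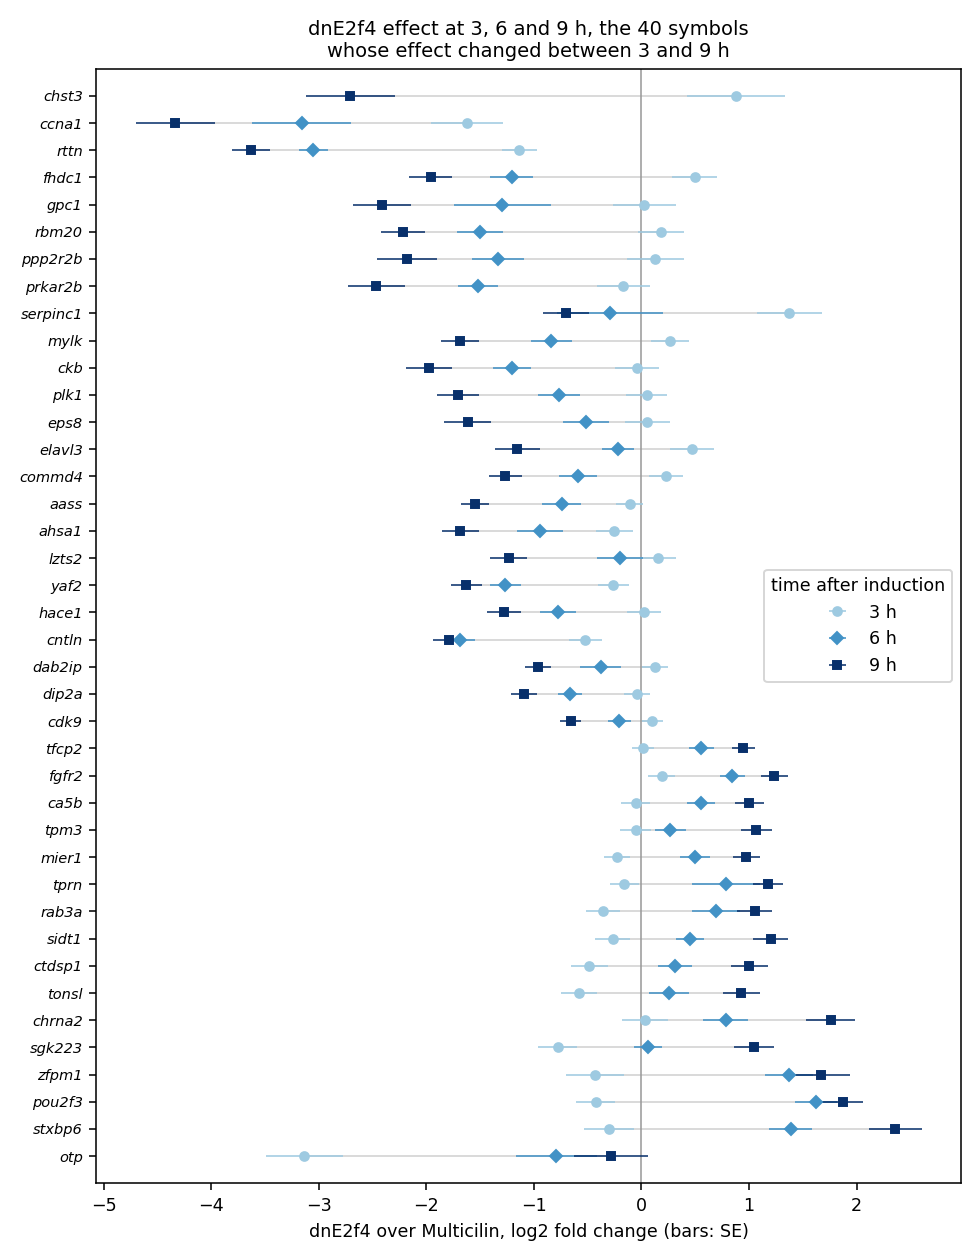
dnE2f4 effect of each of the 40 symbols (rows, ordered by the change between 3 and 9 h) as log2 fold change of dnE2f4 over Multicilin on the horizontal axis, with SE as bars; light circles are 3 h, mid-blue diamonds 6 h and dark squares 9 h. The 6 h point lies between the 3 h and 9 h points in all 39 rows that have one; chst3 was not tested at 6 h.

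The effect moved up in 16 symbols. Pou2f3, a POU-domain factor expressed in the epidermis of mammals and needed for their chemosensory tuft cells, was 41.5, 34.0 and 41.8 CPM in dnE2f4 caps and 55.6, 53.5 and 49.7 in Multicilin caps at 3 h. At 6 h it was 58.5, 50.6 and 75.2 CPM in dnE2f4 caps and 20.4, 16.7 and 23.0 in Multicilin caps. At 9 h it was 35.3, 27.1 and 28.6 CPM in dnE2f4 caps and 6.08, 9.15 and 9.26 in Multicilin caps. The dnE2f4 libraries were the lower at 3 h and the higher at 6 and 9 h, with no overlap at any time. Between 3 and 9 h the level differed by -0.35 (log2) in dnE2f4 caps and by -2.65 in Multicilin caps. At 6 h pou2f3 rose by 1.62 ± 0.20 (log2, edgeR adjusted p = 0.00867). No peak lay within 1000 bases of either of its 2 targets, the nearest being 14988 bases away.

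Stxbp6, amisyn, a regulator of vesicle fusion, was 4.23, 3.87 and 5.86 CPM in dnE2f4 caps and 6.26, 5.88 and 5.06 in Multicilin caps at 3 h. Levels at 9 h were 10.4, 10.6 and 16.1 CPM in dnE2f4 caps and 2.87, 2.32 and 1.93 in Multicilin caps. The groups overlapped at 3 h and were well apart at 9 h, after moving in opposite directions. The 6 h libraries held 12.9, 14.3 and 19.2 CPM with dnE2f4 and 5.95, 5.51 and 6.24 with Multicilin alone, a rise of 1.39 ± 0.20 (log2, edgeR adjusted p = 0.0140).

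Zfpm1, FOG1, a cofactor of GATA factors, was 7.46, 18.2 and 9.87 CPM in dnE2f4 caps and 14.4, 18.9 and 15.0 in Multicilin caps at 3 h. At 9 h it was 52.5, 49.2 and 61.5 CPM in dnE2f4 caps and 17.9, 16.8 and 15.9 in Multicilin caps. The groups overlapped at 3 h and did not at 9 h. The dnE2f4 level was 2.21 (log2) higher at 9 h, and the Multicilin level was nearly the same at both times (a difference of 0.11). At 6 h zfpm1 rose by 1.37 ± 0.22 (log2, edgeR adjusted p = 0.0216).

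Of the other upward members, the growth factor receptor gene fgfr2 and the grainyhead-family factor tfcp2 rose at 6 h, by 0.85 ± 0.12 (edgeR adjusted p = 0.0123) and 0.56 ± 0.11 (0.0430). Fgfr2 was 55.2, 65.9 and 64.7 CPM in dnE2f4 caps and 27.3, 25.0 and 25.8 in Multicilin caps at 9 h, and tfcp2 was 168, 164 and 157 CPM in dnE2f4 caps and 90.8, 79.8 and 80.1 in Multicilin caps. Neither gene's groups overlapped at 9 h. The small GTPase gene rab3a, which acts in vesicle release, changed by 1.41 ± 0.23, the membrane protein gene sidt1 by 1.47 ± 0.23 and the phosphatase gene ctdsp1 by 1.49 ± 0.24. The nicotinic receptor subunit gene chrna2 changed by 1.73 ± 0.31, tprn (taperin) by 1.33 ± 0.19, the corepressor gene mier1 by 1.2 ± 0.17, the tropomyosin gene tpm3 by 1.12 ± 0.20 and the mitochondrial carbonic anhydrase gene ca5b by 1.06 ± 0.19. None of these 8 passed at 6 h, where their effects ran from 0.27 in tpm3 to 0.79 in tprn. With the block 7 did, all but ctdsp1 (edgeR adjusted p = 0.0539), where 12.7% of all symbols were called higher at 6 h.

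The single effect that faded belongs to otp, a homeodomain factor known from hypothalamic development. At 3 h it was 3.2, 2.96 and 5.46 CPM in dnE2f4 caps and 26.1, 32.9 and 43.3 in Multicilin caps. At 6 h it was 2.36, 4.15 and 4.45 CPM in dnE2f4 caps and 3.73, 9.03 and 5.82 in Multicilin caps. The 9 h values were 4.75, 2.85 and 2.07 CPM in dnE2f4 caps and 3.19, 4.72 and 3.60 in Multicilin caps. The groups were apart at 3 h and overlapped at 6 and 9 h. The effect was -3.13 ± 0.36 at 3 h and -0.28 ± 0.34 at 9 h, and the 6 h effect of -0.79 ± 0.37 did not pass (edgeR adjusted p = 0.327, and 0.00638 with the block). The dnE2f4 level hardly differed between times (-0.25 between 3 and 9 h) while the Multicilin level was 3.1 (log2) lower at 9 h. One of its 2 targets, on scaffold 220499, positions 1878234 to 1888729 on the plus strand, had a peak 275 bases away without Multicilin, and no peak with Multicilin lay within 1000 bases.

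**Figure D3:**
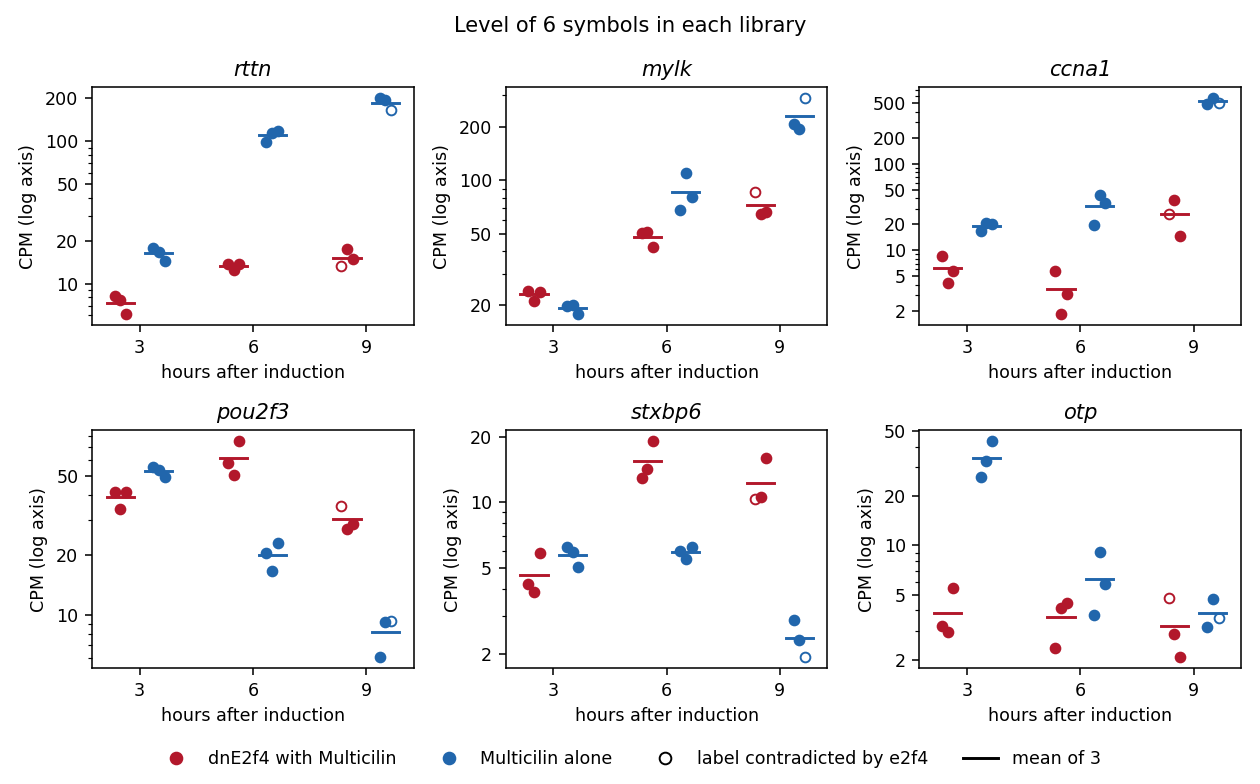
Level in CPM (log axis) of rttn, mylk, ccna1, pou2f3, stxbp6 and otp in each library at 3, 6 and 9 h, with dnE2f4 in red to the left of Multicilin in blue, short lines for the mean of 3 libraries, and open circles for the 2 libraries whose label e2f4 went against. The dnE2f4 libraries of rttn stay below 18 CPM while its Multicilin libraries reach 164 to 200, and for otp the 2 groups come together by 9 h.

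Effects of 4 symbols reversed by the size rule, but none of the 4 was called at 3 h. The 3 h edgeR adjusted p was 0.166 in sgk223, 0.278 in tonsl, 0.140 in serpinc1 and 0.848 in chst3. Serpinc1 was not called at 9 h either (edgeR adjusted p = 0.0564). Sgk223, a pseudokinase gene also called pragmin, was 49.9, 29.9 and 36.8 CPM in dnE2f4 caps and 69.7, 72.5 and 60.1 in Multicilin caps at 3 h. At 9 h it was 54.8, 56.1 and 63.0 CPM in dnE2f4 caps and 30.3, 27.3 and 25.6 in Multicilin caps. At 6 h the groups overlapped, at 67.7, 74.5 and 69.7 CPM in dnE2f4 caps and 62.5, 62.9 and 78.6 in Multicilin caps. The dnE2f4 libraries were thus all below the Multicilin libraries at 3 h and all above them at 9 h, with effects of -0.78 ± 0.18 and 1.05 ± 0.18.

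Tonsl, which acts in the repair of stalled replication forks, had effects of -0.58 ± 0.17 at 3 h and 0.93 ± 0.17 at 9 h. It was 15.4, 12.4 and 11.7 CPM in dnE2f4 caps and 6.01, 7.08 and 7.39 in Multicilin caps at 9 h, below its 3 h levels in both groups. The other 2 reversed downward and were scarce at 3 h. Serpinc1, antithrombin, was 1.04, 0.513 and 0.617 CPM in dnE2f4 caps and 0.321, 0.253 and 0.245 in Multicilin caps at 3 h, and 17.7, 16.3 and 20.7 CPM in dnE2f4 caps and 32.6, 27.5 and 27.6 in Multicilin caps at 9 h. Chst3, a chondroitin sulfotransferase, never exceeded 1.80 CPM in any library, so its change of -3.59 ± 0.61 rests on few fragments. With 0.25 in place of 0.5 as the size needed at both times, 13 of the 40 would count as reversed.

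The 6 h libraries, which had no part in the choice, gave an intermediate value for each symbol tested. They are not fully independent of the choice, since they deviated together with same-numbered libraries of 3 and 9 h. Of the 24 symbols that moved down, 23 could be tested at 6 h, and all 23 had an effect below 0, as did 45.9% of all symbols. Of them 10 were called lower, where 2.53% of all 10337 symbols were, and in 20 the 6 libraries did not overlap, where 12.8% of all symbols did not in that direction. Of the 16 that moved up, 15 had an effect above 0, as did 54.1% of all symbols, otp being the exception. Called higher at 6 h were 5 of them, where 0.368% of all symbols were, and in 11 the libraries did not overlap, where 10.5% did not in that direction. With replicate number as a block 17 of the 23 were called lower and 12 of the 16 higher, where 15.1% and 12.7% of all symbols were. The 6 h effect lay between the 3 h and 9 h effects in 39 of 39, as it did in 52.1% of all symbols with a value at each time. A wide gap between 3 and 9 h leaves more room between them: among the 1383 other symbols with a change of at least 0.76, the smallest of the 40, it lay between in 78.6%. Those symbols were not called and were matched on the smallest change only, while the changes of the 40 ran from -3.59 to 2.85. The 78.6% is therefore not a like baseline, and the comparison uses the 3 h and 9 h values that chose the 40.

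How far dnE2f4 caps and Multicilin caps moved over time varied from symbol to symbol. Of the 22 downward deepening symbols, 8 were at least 2-fold higher at 9 h in dnE2f4 caps and 8 at least 2-fold lower. In Multicilin caps 12 of these 22 had a 9 h level at least 2-fold above that at 3 h, and 1 had one at least 2-fold below it. Ccna1 and cntln were higher in both, while prkar2b, ahsa1 and plk1 differed by -1.74 to -1.12 (log2) in dnE2f4 caps and by 0.25 to 0.64 in Multicilin caps. Of the 13 upward deepening symbols, 0 were at least 2-fold higher in Multicilin caps at 9 h and 6 were at least 2-fold lower. In dnE2f4 caps 4 of these 13 were at least 2-fold higher at 9 h and 1 at least 2-fold lower. The same shares over all symbols were not counted, so these counts only describe the members.

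The share of the 40 symbols with E2f4 bound nearby lay near that of all symbols. A peak centre lay within 1000 bases of a target start in 16 of 40 with Multicilin (40.0%, 95% Wilson interval 26.3 to 55.4) and in 17 of 40 without it (42.5%, 28.5 to 57.8). Over all symbols tested the shares were 33.2% and 44.0%. The 24 that moved down had a peak in 8 with Multicilin and 10 without, and the 16 that moved up in 8 and 7. Among the 24, fhdc1, gpc1, rbm20, ppp2r2b, prkar2b and mylk had no peak within 1000 bases in either set. The intervals cover counting error only, and the peak sets were pooled over replicates, so the spread between replicates is unknown.

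The median of centriole genes as a list was lower at each later time, with 9 h libraries grouped by e2f4, and nearly all of them missed the threshold for the change. The list of 69 tested centriole assembly genes, rttn among them, had a median effect of -0.51 at 3 h, -0.80 at 6 h and -1.04 at 9 h, beside 0.00, 0.03 and 0.06 over all symbols. Called lower were 9 of 69 at 3 h, 39 of 68 at 6 h and 48 of 69 at 9 h, and called higher 0, 0 and 2. Over all symbols 0.175% were called lower at 3 h, 2.53% at 6 h and 6.24% at 9 h. In the change between 3 and 9 h rttn was the only one called. With a block for replicate number within each time 21 were called there, all downward, where 374 of all 10879 symbols were called downward. At 3 h 22 were called lower with the block, where 168 of all 10879 symbols were. The median change was -0.48, and -0.43 without the pair against its labels. With the labels as deposited it was 0.30, the 9 h median being -0.27. The list was chosen with earlier results of these data known.

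Single centriole genes show the size. Plk4, the kinase that starts centriole duplication, had effects of -0.93 ± 0.21, -2.03 ± 0.23 and -2.05 ± 0.21 at 3, 6 and 9 h and a change of -1.12 ± 0.29. Cep152, which recruits Plk4, had -1.25 ± 0.15, -1.73 ± 0.15 and -2.14 ± 0.15 and a change of -0.90 ± 0.21. Stil, a partner of Plk4 in building the cartwheel, changed by -0.90 ± 0.26, sass6, the cartwheel protein, by -0.48 ± 0.23, and ccdc67 (Deup1), which organises the deuterosomes on which multiciliated cells make centrioles, by -0.51 ± 0.26. None of these 5 passed in the change between 3 and 9 h. With the block within each time plk4 (edgeR adjusted p = 0.0186), cep152 (0.0149) and stil (0.0353) did.

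Of 24 tested genes on a list of multiciliated-cell regulators, ccna1 and otp passed in the change, 1 downward and 1 upward. The list was chosen with earlier results of these data known, so a place on it does not show a role in these cells. The regulators and cilium genes that follow did not pass in the change. Foxj1, the master factor of motile cilia, had effects of -0.66 ± 0.17 at 3 h, -0.53 ± 0.13 at 6 h and -0.30 ± 0.17 at 9 h, and a change of 0.36 ± 0.24. None of these passed, other than the 6 h effect with replicate number as a block (edgeR adjusted p = 0.000167). Tp73, another regulator of multiciliogenesis, had -1.36 ± 0.24, -1.34 ± 0.16 and -0.99 ± 0.24, and foxn4 -1.33 ± 0.25, -1.79 ± 0.16 and -1.93 ± 0.25. Myb changed by -0.20 ± 0.18, ccno, the cyclin O of centriole amplification, by -0.40 ± 0.39, cdc20b by -0.56 ± 0.39 and the centrin gene cetn2 by -0.38 ± 0.43. The 69 axoneme genes, which include the dynein gene dnai1 with a change of -0.03 ± 0.23, had medians of -0.44, -0.37 and -0.49 at the 3 times, and 0 were called in the change by edgeR, with the block or not, and by DESeq2, with 2 at an unadjusted p under 0.05. Their median change of -0.03 took the opposite sign when scaled by library size alone (0.10), without the pair against its labels (0.03) and with the labels as deposited (0.33). The 59 genes of ciliary transport and the transition zone had medians of -0.38, -0.40 and -0.62, the last being -0.15 with the labels as deposited.

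Medians of the cell-cycle lists lay between -0.21 and 0.15 at the 3 times. Among 85 tested genes of the G1/S transition and DNA replication, classical targets of E2f proteins, the median effect was -0.21 at 3 h, -0.15 at 6 h and 0.10 at 9 h. The 9 h median was below 0 with uniquely assigned counts (-0.10), with targets joined by position (-0.02) and with the labels as deposited (-0.07). In the change edgeR called 0 of the 85 and DESeq2 called 2, where DESeq2 called 305 of all 10879 symbols. An unadjusted edgeR p under 0.05 was found for 15 of the 85 and for 1352 of all symbols. With the block within each time 7 passed upward and 2 downward, where 568 and 374 of all symbols did. Among 90 genes of G2/M and mitosis the medians were -0.04, 0.15 and -0.02, and plk1 was the only one called in the change by edgeR. DESeq2 called 4, and with the block within each time 6 passed upward and 7 downward, beside the same 305, 568 and 374 over all symbols.

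The median of ionocyte genes as a list was higher at each later time, with 9 h libraries grouped by e2f4. The list of 26 tested ionocyte and vacuolar ATPase genes had a median effect of 0.00 at 3 h, 0.22 at 6 h and 0.79 at 9 h, and a median change of 0.66, beside 0.06 over all symbols. Called higher were 0 of 26 at 3 h, 1 at 6 h and 10 at 9 h, where 0.00919%, 0.368% and 5.41% of all symbols were, and none was called lower. The only symbol called higher at 3 h was e2f4, whose RNA was injected. In the change 0 passed in edgeR and 10 had an unadjusted p under 0.05, where 1352 of all 10879 symbols had. With the block within each time 9 passed, all upward, and DESeq2 called 5. Over all symbols 568 passed upward with the block, and DESeq2 called 305. Called higher with the block were 2 at 3 h, 7 at 6 h and 16 at 9 h, and 2 were called lower at 6 h. Over all symbols 21 of 10879, 1314 of 10337 and 1939 of 10879 were called higher with it, and 1558 lower at 6 h. Foxi1, the forkhead factor that specifies ionocytes, had effects of -0.19, 0.89 and 1.07, and did not pass at 9 h (edgeR adjusted p = 0.477). Its 3 h level was 499 ± 428 CPM in dnE2f4 caps and 568 ± 79.0 in Multicilin caps (SD), and its change was 1.27 ± 1.27 (SE). The 3 h effect of foxi1 is therefore poorly determined. Ubp1, a grainyhead-family factor of the same cells, had 0.94, 1.49 and 1.79 and passed at 9 h (0.0012), as did the proton pump subunit gene atp6v1b1 with 0.29, 0.71 and 1.52 and the anion exchanger gene slc4a1 with -0.11, 0.73 and 1.35. Of the 26 genes 5 had a change below 0, where 4862 of all 10879 symbols did. Among these were the carbonic anhydrase gene ca2, with effects of -0.36, -1.11 and -0.995, and the ammonium channel gene rhcg, with 0.01, -0.06 and -0.69, neither passing at 9 h. The median change was 0.50 without the pair against its labels, and -0.015 with the labels as deposited, where the 9 h median was 0.03.

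Markers of cell types stood as follows in libraries of the common target set. The summed level of 6 multiciliated-cell markers at 9 h was 8511 to 11383 CPM in 2 dnE2f4 libraries and 14665 to 17355 in 3 Multicilin libraries. At 3 h it was 2425 to 3564 CPM in 2 dnE2f4 libraries and 4495 to 4717 in 3 Multicilin libraries. The sum of 6 ionocyte markers was 873 to 1106 CPM with dnE2f4 and 497 to 677 with Multicilin alone at 9 h. At 3 h it was 1300 to 1422 CPM with dnE2f4 and 964 to 1214 with Multicilin alone. The ionocyte sum was thus already higher with dnE2f4 at 3 h. It includes foxi1, which stood at 499 ± 428 CPM (SD) over all dnE2f4 libraries of 3 h, and it leaves out dnE2f4 replicate 1. Over all libraries of 3 h, atp6v1a stood at 534 ± 90.4 CPM with dnE2f4 and 517 ± 72.7 with Multicilin alone (SD). Means of ca12, slc26a4, atp6v1b1 and atp6v0a4 were at most 25.4 CPM, so foxi1 and atp6v1a make up most of the sum. Which marker carries the 3 h difference in the sum was not tested. The median 3 h effect of the longer ionocyte list was 0.00, and -0.01 without the libraries of the other target set. The ranges of the 2 groups did not overlap for the multiciliated or the ionocyte sum at either time, and all 6 markers of each reached 1 CPM in every group. The 2 basal-cell markers measured summed to 369 to 461 CPM with dnE2f4 and 202 to 259 with Multicilin alone at 9 h, and to 192 to 257 CPM with dnE2f4 and 196 to 213 with Multicilin alone at 3 h, with overlap. At 9 h 5 neural markers summed to 6077 to 9808 CPM with dnE2f4 and 9513 to 12858 with Multicilin alone, with overlap. At 3 h the neural sum was 1394 to 2008 CPM with dnE2f4 and 2368 to 2904 with Multicilin alone, without overlap. Single neural markers need not follow this sum. Elavl3, listed among them, was 83.1, 60.9 and 83.8 CPM with dnE2f4 and 65.0, 43.1 and 57.9 with Multicilin alone at 3 h, over all libraries and with overlap. By 9 h elavl3 was 5.86, 8.99 and 8.66 CPM with dnE2f4 and 16.8, 16.8 and 18.2 with Multicilin alone. Other markers thus make up most of the neural sum, and which of them do was not examined. Of 20 tested genes on a longer neural list, 17 had a 3 h effect below 0. Ectoderm markers, which check the tissue, summed to at least 6250 CPM in every group. The 3 endoderm markers measured, gata4, gata5 and gata6, summed to 76.3 to 94.1 CPM with dnE2f4 and 55.3 to 74.1 with Multicilin alone at 3 h, without overlap, and to at most 2.28 CPM at 9 h, where each was under 1 CPM. The 5 mesoderm markers summed to 20.4 to 22.8 CPM with dnE2f4 and 2.07 to 21.6 with Multicilin alone at 3 h, and to at most 12.1 at 9 h. The part of cell-type composition in the changes of the 40 symbols was not tested.

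**Figure D4:**
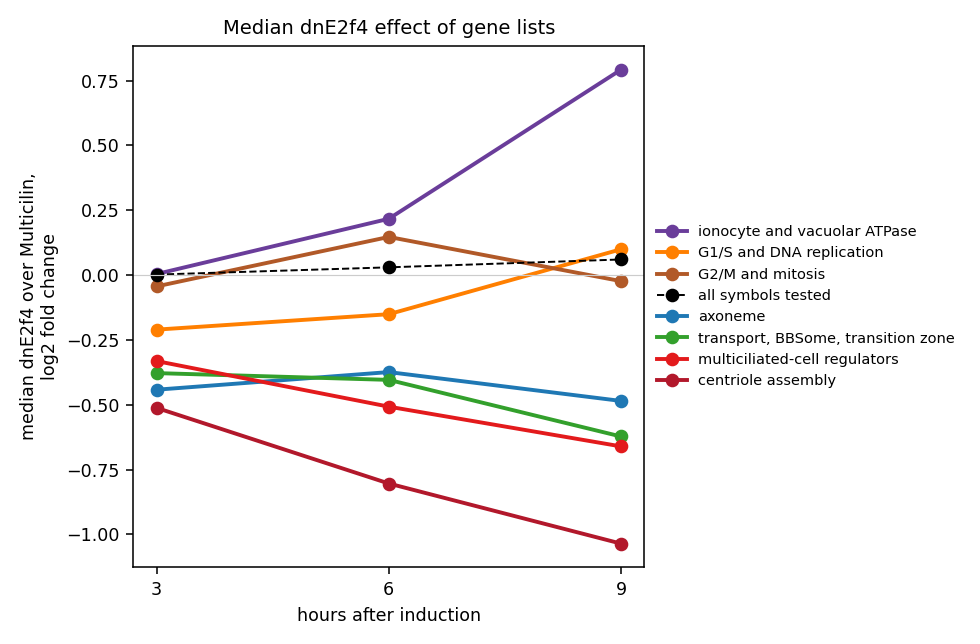
Median dnE2f4 effect (vertical axis, log2 fold change of dnE2f4 over Multicilin) of 7 gene lists and, dashed, of all symbols tested, at 3, 6 and 9 h after induction. With 9 h libraries grouped by e2f4, the median of centriole assembly genes goes down at each step and that of ionocyte genes goes up, while all symbols stay between 0.00 and 0.06.

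Most symbols called at 3 h were not among the 40. Of the 20 symbols called at 3 h, 18 were called with the same sign at 9 h and 18 at 6 h. These counts include e2f4, the only symbol called higher at 3 h. Its RNA was injected and its level set the 9 h groups, so its calls were fixed in advance. The change passed in 2 of the 20, rttn and otp, and in 9 of the 20 with a block for replicate number within each time. Conversely, 1250 symbols were called at 9 h and not at 3 h, and 37 of these were among the 40. In this fit, which has no block, a call at 9 h alone thus rarely came with a called difference from 3 h. The same overlap was not counted with the block, so this describes the fit and not the symbols. With a block for replicate number within each time 189 symbols were called at 3 h (1.74%) and 3544 at 9 h (32.6%). With this block the change itself was called in 942 symbols (8.66%), 39 of the 40 among them, 568 upward and 374 downward.

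The threshold falls among like values. Just inside stood chrna2, tpm3 and cdk9, with changes of 1.73, 1.12 and -0.76. Just outside stood ankib1 (-1.19), kbtbd2 (-0.91) and cap1 (0.79). All 3 of these were thus larger than cdk9 in size. Scaled by library size alone the change was called upward in 23 symbols and downward in 12, against 16 and 24 with TMM scaling, and the median change over all symbols went to 0.17, against 0.06. Relative to that median the 40 symbols kept their directions.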

How the data were processed

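RNA was measured in 18 libraries and E2f4-GFP binding in 2 peak sets. The estimated counts (expected counts) were made by the authors with eXpress, which shares fragments among possible targets, and the uniquely assigned counts were deposited in the same tables, per the file headers. STAR, Bowtie, Bowtie2, DESeq and HOMER are also named in the submitters' processing notes, without versions. Peaks were called by the authors with HOMER on pooled replicates per the file headers, keeping those at an FDR of 0.001 that exceeded input and the local region at least 4-fold.

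Estimated counts were summed by lower-case symbol, rounded, filtered with filterByExpr, scaled by TMM and tested with edgeR 4.0.16 in R 4.3.3 (quasi-likelihood F test, robust, a mean per group, Benjamini-Hochberg threshold 0.05). The 12 libraries of 3 and 9 h gave the change and both effects, and a separate fit of 6 libraries gave 6 h. Fragments on targets with no symbol, 1.70 to 3.93% per library, were left out. The SE is the fold change divided by the root of the F statistic. The step was also run on simulated counts, drawn independently for each library. These held no pairing by replicate number and no difference of target sets, so they cannot show how the step handles either. DESeq2 1.42.0 and other settings were alternatives.

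Genes were named by a rule: up to 8 members per class and sign with at least 5 CPM in a group, members on the lists, a panel of 16 genes, and the 3 symbols on each side of the threshold. The other members were named to account for all 40, and foxi1, ubp1, atp6v1b1, slc4a1, ca2 and rhcg as examples of their list, after their values were seen. The members and lists were chosen with earlier results of these data known. No promoter sequence was used, so a planned count of motifs was not made.

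Libraries with the same replicate number deviated together from their group means, with correlations of 0.26 to 0.40 at 3 h, 0.48 to 0.72 at 6 h and 0.20 to 0.51 at 9 h, so numbers pair libraries within a time. Between 3 and 9 h same-numbered libraries ran from -0.51 to 0.65, and different numbers from -0.67 to 0.65. Same-numbered pairs with a Multicilin library, grouped by e2f4, ran from 0.13 to 0.48, and values below 0 came from pairs of dnE2f4 libraries. The highest value for different numbers joined the 2 libraries of the other target set. For same numbers the range was 0.25 to 0.58 between 3 and 6 h, and 0.15 to 0.61 between 6 and 9 h. For different numbers these 2 ranges were -0.47 to 0.14 and -0.53 to 0.12. The 6 h libraries thus deviated together with same-numbered libraries of the times that chose the members. No 2 libraries of a group were duplicates, chi-square per degree of freedom being at least 18.8.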

Additional observations from a re-analysis of the deposited data

Results flagged for a closer look

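The dnE2f4 effect differed between 3 and 9 h in 40 symbols by edgeR's test of that difference, at an adjusted p under 0.05. This is the same test that chose them. The change (log2, effect at 9 h minus effect at 3 h) was downward in chst3 (-3.59), ccna1 (-2.71), rttn (-2.50), fhdc1 (-2.45), gpc1 (-2.44), rbm20 (-2.40), ppp2r2b (-2.31), prkar2b (-2.30), serpinc1 (-2.08), mylk (-1.95), ckb (-1.93), plk1 (-1.75), eps8 (-1.67), elavl3 (-1.62), commd4 (-1.50), aass (-1.44), ahsa1 (-1.43), lzts2 (-1.39), yaf2 (-1.37), hace1 (-1.30), cntln (-1.26), dab2ip (-1.09), dip2a (-1.05) and cdk9 (-0.76). It was upward in otp (2.85), stxbp6 (2.66), pou2f3 (2.30), zfpm1 (2.1), sgk223 (1.82), chrna2 (1.73), tonsl (1.51), ctdsp1 (1.49), sidt1 (1.47), rab3a (1.41), tprn (1.33), mier1 (1.2), tpm3 (1.12), ca5b (1.06), fgfr2 (1.04) and tfcp2 (0.93). Groups at 9 h were set by e2f4 for these values. In the libraries without the pair against its labels, rttn and mylk passed.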

How the results depend on the processing

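The alternatives reuse libraries that chose the 40 symbols, so they are not independent checks. All 40 changes kept their direction under every alternative other than the labels as deposited, where ccna1 (0.65) and rttn (0.083) were above 0, and cntln too. The number of symbols called moved far more. For the change it was 40, and 305 with DESeq2 (39 of the 40 among them), 2 with uniquely assigned counts, 470 with a replicate block over all times (40 among them) and 942 with a replicate block within each time (39 among them). It was 142 with 18 libraries in 1 fit, 2 without the pair, 0 as labelled (82 at an unadjusted p under 0.05), 15 without the libraries of the other target set and 9 with targets joined by position. At 3 h the 20 became 163, 5, 84, 189, 81, 4, 1, 36 and 13 in that order, and 6 with library size alone. At 9 h the 1268 became 506 with uniquely assigned counts, 2725 and 3544 with the blocks, 181 without the pair and 0 as labelled (99 at an unadjusted p under 0.05). At 6 h the 300 became 799 with DESeq2 and 2872 with the replicate block. Leaving out 1 library gave 6 to 41 calls for the change, 1 to 32 at 3 h, 521 to 1357 at 9 h and 21 to 300 at 6 h. For the change 11 of the 12 libraries moved the count by over 1.5 times, the exception being dnE2f4 9 h replicate 3 (41). At 3 h 10 of the 12 did, other than dnE2f4 9 h replicate 3 and the library labelled Multicilin 9 h replicate 2. At 9 h both libraries labelled replicate 2 (521 and 646) and Multicilin replicate 3 (624) did, and at 6 h replicates 2 and 3 of both groups (21 and 79 without those of dnE2f4, 89 and 74 without those of Multicilin). Aass, fhdc1, mylk, pou2f3, rbm20 and rttn passed in all 12 such fits. At 0.25 in place of 0.5, 13 symbols reversed in place of 4. Of 1399 values of named genes under alternatives, 1023 stayed on their side of the threshold, 314 lost the call, 60 gained one and 2 reversed, those of ccna1 and rttn with the labels as deposited. The causes were not tested. The 4 counts at 3 h without the pair and the 2 for the change rest on 10 libraries. Position joining, and the block within each time, were chosen after seeing the data. Library size alone moved the 6 h split to 62 higher and 193 lower, and the 9 h split to 1331 and 457, beside 589 and 679.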
